A study of Mus musculus with 7 samples.

Results

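Late secreted activity-regulated proteins are products that neurons make and release, or display on their surface, in the hours after strong activity. The group was fixed by name as 8 genes: the neuronal pentraxin genes Nptx1, Nptx2 and Nptxr, the granin genes Vgf and Scg2, the prohormone convertase gene Pcsk1, the activin subunit gene Inhba and the neuritin gene Nrn1. A gene counted as measured when a probe set carried its symbol alone, and 7 of the 8 did, among 22180 measured genes. Nptxr is annotated only to a probe set that carries 3 symbols, so no value is given for it.

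The values come from 7 one-colour Affymetrix arrays, 4 from cocaine-activated cells (arrays 4, 5, 6 and 7) and 3 from shock-activated cells (arrays 4, 5 and 6) of the mouse medial prefrontal cortex (mPFC). All mice carried a Cre-dependent GFP tag on their ribosomes together with an ArcCre transgene, in which the promoter of Arc, an activity-regulated gene, drives Cre, and both groups received tamoxifen. The cocaine group was given 15 mg/kg on 2 days, and the shock group 20 shocks of 0.5 mA and 2 s on 2 days. RNA on tagged ribosomes was then precipitated with an anti-GFP antibody. How long after the last dose or shock the tissue was taken is not reported here. By design the tag marks cells in which the Arc transgene was active in the tamoxifen window. How far the precipitates hold RNA of other cells was not tested, and no unstimulated group was analysed here. The labels used here give no animal age, strain or pooling and do not tie an array to an animal, so p-values measure the spread between arrays, which may be technical in part. In such a precipitate, fewer cells of a type and less RNA per cell cannot be told apart.

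The products of this group act outside or on the way out of the neuron. Firing raises calcium, and kinases activate CREB and induce immediate early transcription factors. CREB itself or the induced factors can switch on effector genes whose products travel through the secretory pathway. Secreted pentraxins gather AMPA receptors at excitatory synapses, granins form the core of dense core vesicles and yield peptides, the convertase cuts prohormones inside those vesicles, activin signals through serine/threonine kinase receptors, and neuritin, held on the surface by a lipid anchor, promotes growth and stability of neuronal branches.

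Promoter sequence was matched for 3 of the 8 genes, Scg2, Pcsk1 and Inhba, in RefSeq's GRCm38.p6 annotation. They are shown because they are the members with a matched promoter. Each is the 250 bases before the annotated start, 5′ to 3′ on the strand of the gene, with capitals marking the cAMP response element TGACGTCA, the site that CREB binds, and its shorter forms TGACG and CGTCA. The Scg2 stretch is chr1:79440027-79440276 on the minus strand. The Pcsk1 stretch is chr13:75089607-75089856 and the Inhba stretch chr13:16011601-16011850, both on the plus strand. Both starts lie inside the span of the gene (75089420 to 75134861 for Pcsk1, 16004256 to 16031609 for Inhba), so neither is the outermost start of its gene.
Scg2: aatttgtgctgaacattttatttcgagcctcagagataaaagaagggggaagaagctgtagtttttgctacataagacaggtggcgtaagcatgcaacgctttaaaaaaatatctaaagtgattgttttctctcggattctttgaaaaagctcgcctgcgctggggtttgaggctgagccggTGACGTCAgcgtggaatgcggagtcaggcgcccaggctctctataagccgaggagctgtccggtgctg
Pcsk1: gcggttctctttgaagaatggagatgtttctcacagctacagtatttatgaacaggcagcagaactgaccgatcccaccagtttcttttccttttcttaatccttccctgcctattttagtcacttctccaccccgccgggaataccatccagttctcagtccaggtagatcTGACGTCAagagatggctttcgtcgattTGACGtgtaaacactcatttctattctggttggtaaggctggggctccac
Inhba: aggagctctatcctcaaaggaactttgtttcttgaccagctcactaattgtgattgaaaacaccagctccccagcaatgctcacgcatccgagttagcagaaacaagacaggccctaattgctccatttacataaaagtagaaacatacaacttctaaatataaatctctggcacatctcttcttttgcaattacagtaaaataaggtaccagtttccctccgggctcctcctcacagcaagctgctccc

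The full element TGACGTCA began at position -68 from the start of Scg2 and at position -78 from that of Pcsk1, and it is a palindrome, so both strands carry it. Pcsk1 held another short form TGACG at position -50. Of all 32851 promoter stretches of this length, 1.55% held the full element and 17.8% held a short form on either strand, a count that includes every full element. The Inhba stretch held neither, and its single match among the motifs searched was TATAAA at position -91 (12.4% of all stretches, either strand). The E-box CANNTG occurred once, in Scg2 at position -173 (66.2% of all stretches). The AP-1-like pattern TGANTCA, with any base in the middle (6.75%), and the CArG box of serum response factor (1.47%) were found in 0 of the 3. These are matches of letters and were not tested as binding sites.

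Across the group, no difference between cocaine-activated and shock-activated cells passed the adjusted test. With so few arrays this does not show that the cells are alike. The mean was higher in the cocaine group for 5 of the 7 measured genes, where 50.9% of all genes had a higher mean, and the median difference was 0.071 on the log2 scale, against 0.0016 over all genes. By limma, 0 of the 7 passed an adjusted p of 0.05, as did 0% of all genes, and 0 passed at an unadjusted p of 0.05, against 3.1% of all genes. For 0 of the 7 did the groups separate without overlap, which 2.37% of all genes did. Without shock array 4 the median was 0.0097.

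**Figure D1:**
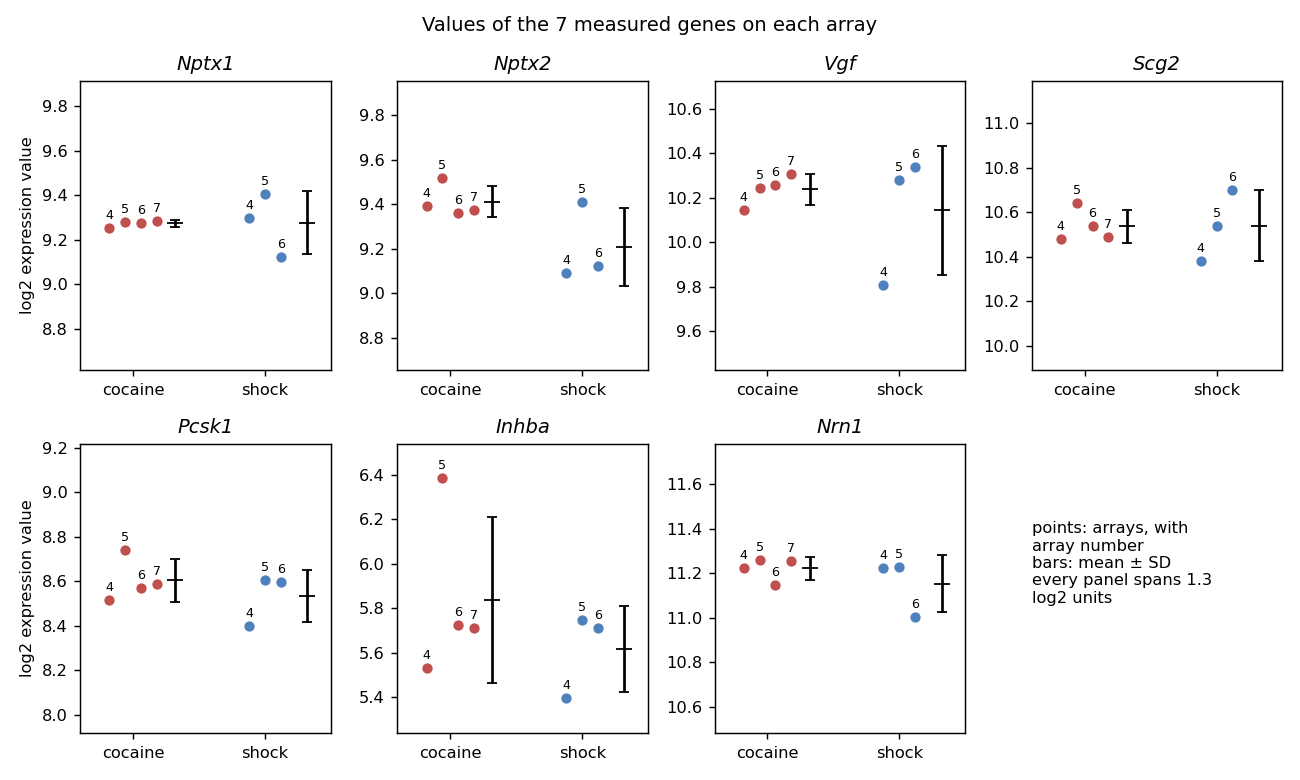
Log2 expression value (vertical axis) of each measured gene on every array, cocaine left and shock right, with the array number above each point and the mean ± SD beside it (n = 4 and 3). In every panel the groups overlap, and Nptx1 shows the tightest cocaine group (SD 0.014, against 0.14 in the shock group).

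Nptx2, also called Narp, encodes a secreted pentraxin that neurons release at excitatory synapses, including those onto parvalbumin interneurons, where it clusters AMPA receptors. Its values were 9.39, 9.52, 9.36 and 9.38 on cocaine arrays 4, 5, 6 and 7, against 9.09, 9.41 and 9.12 on shock arrays 4, 5 and 6. All 4 cocaine arrays lay above shock arrays 4 and 6, while shock array 5 lay above 3 of the cocaine arrays. Cocaine arrays averaged 9.41 ± 0.07 (SD, n = 4), against 9.21 ± 0.18 (SD, n = 3) for shock arrays. The difference of 0.20 (SE 0.086), a 1.15-fold higher value, had a 95% interval of 0.998 to 1.33-fold and did not pass the test (limma, adjusted p = 0.938). An exact two-sided permutation over the 35 splits of the arrays gave p = 0.143, where 0.0286 is the smallest they can give. Leaving out shock array 4 gave a difference of 0.15, and leaving out shock array 5 gave 0.31. The unadjusted limma p of 0.052 fell under 0.05 in 5 of the 15 alternatives, lowest without shock array 5 (0.0019), while no alternative passed the adjustment over all genes.

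Nptx1 encodes the related secreted pentraxin that assembles with Nptx2 and with the membrane-bound Nptxr. It had 9.25, 9.28, 9.28 and 9.29 on cocaine arrays 4, 5, 6 and 7, against 9.30, 9.40 and 9.12 on shock arrays 4, 5 and 6. The 4 cocaine arrays were nearly equal and fell between the lowest and the highest shock arrays. The difference was -0.0022 (SE 0.065), with a 95% interval of 0.896 to 1.11-fold (limma, adjusted p = 0.999). Its sign rested on single arrays, since it came to -0.078 when shock array 6 was left out and to 0.062 when shock array 5 was.

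The AMPA receptor subunits that these pentraxins gather, and Adam17, the protease that sheds Nptxr from the membrane, showed no common direction. Of these 5 genes, 1 was higher and 4 were lower in the cocaine group, with a median of -0.0071, and 0 passed the test (limma, adjusted p under 0.05) or an unadjusted p of 0.05. Adam17 differed by -0.051, Gria3 by -0.027 and Gria1 by 0.022. The other pentraxin genes, Crp, Apcs and Ptx3 of innate immunity together with Ptx4, all had mean values under the background stand-in of 5.44, with differences of 0.041 for Ptx4, -0.082 for Ptx3 and 0.0025 for Apcs.

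Vgf encodes a neurosecretory protein, induced by neurotrophins, that is cut into several bioactive peptides. It had 10.14, 10.24, 10.26 and 10.31 on cocaine arrays 4, 5, 6 and 7, against 9.81, 10.28 and 10.34 on shock arrays 4, 5 and 6. Shock array 4 lay well below the other arrays, and shock array 6 was the highest of all. The difference was 0.094 (SE 0.13), with a 95% interval of 0.863 to 1.32-fold (limma, adjusted p = 0.944). Without shock array 4 the direction turned and the difference was -0.073.

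Scg2 encodes secretogranin II, the precursor of the peptide secretoneurin. It had 10.48, 10.64, 10.54 and 10.49 on cocaine arrays 4, 5, 6 and 7, against 10.38, 10.54 and 10.70 on shock arrays 4, 5 and 6. The cocaine arrays lay between the lowest and the highest shock arrays, and the lowest was again array 4 and the highest array 6 of the shock group. The difference was -0.0030 (SE 0.082), with a 95% interval of 0.872 to 1.14-fold (limma, adjusted p = 0.998). Leaving out shock array 4 gave -0.083, and leaving out shock array 6 gave 0.078.

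The other granins and dense core vesicle genes were summarised by a score. Their score, the mean over the list of each value minus the mean of that gene over the 7 arrays, ran from -0.040 to 0.011 on the cocaine arrays and was -0.047, 0.022 and 0.057 on shock arrays 4, 5 and 6. As with Vgf and Scg2, shock array 4 was lowest and shock array 6 highest. Of the 8 genes, 2 were higher and 6 lower in the cocaine group, with a median of -0.0050, and 0 passed the test or an unadjusted p of 0.05. Scg3, a granin that helps sort cargo into granules, differed by -0.11, the vesicle priming gene Cadps2 by -0.060, and Ptprn, a membrane protein of dense core vesicles, by 0.037.

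Pcsk1 encodes a convertase that cuts prohormones after pairs of basic residues inside dense core vesicles, and granins are among its substrates. It had 8.51, 8.74, 8.57 and 8.59 on cocaine arrays 4, 5, 6 and 7, against 8.40, 8.60 and 8.59 on shock arrays 4, 5 and 6. Cocaine array 5 was highest and shock array 4 lowest, and the other 5 arrays lay close together. The difference was 0.071 (SE 0.074), with a 95% interval of 0.930 to 1.19-fold (limma, adjusted p = 0.938). Leaving out cocaine array 5 gave 0.026, and leaving out shock array 4 gave 0.0041.

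The other prohormone processing genes were divided in direction. Of 11 measured among 13 listed, 5 were higher and 6 lower in the cocaine group, with a median of -0.0084, and 0 passed the test or an unadjusted p of 0.05. The convertase genes Pcsk4 and Pcsk6 differed by -0.081 and 0.053, and Pcsk1n, whose product inhibits the convertase made by Pcsk1, by 0.049. The abundant carboxypeptidase gene Cpe, which trims the cut peptides, differed by 0.0084 and the amidating enzyme gene Pam by 0.015 (both named outside the rule, after their values were seen).

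Inhba encodes the beta A subunit, which pairs with itself to form activin A, a growth factor of the TGF-beta family that neurons release after activity. It had 5.53, 6.38, 5.72 and 5.71 on cocaine arrays 4, 5, 6 and 7, against 5.40, 5.75 and 5.71 on shock arrays 4, 5 and 6. One value carried the difference: cocaine array 5 stood high, while the 3 other cocaine arrays lay within the range of the shock arrays. The difference was 0.22 (SE 0.21), with a 95% interval of 0.825 to 1.64-fold (limma, adjusted p = 0.938), and leaving out cocaine array 5 gave 0.038 and shock array 4 gave 0.11. All 7 genes had means above the background stand-in of 5.44, but Inhba, with a mean of 5.74, lay nearest to it, and its shock array 4 lay under it.

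In the activin and inhibin system, which comprises the other subunits, receptors, antagonists and Smad transducers, 10 of 17 genes were higher and 7 lower in the cocaine group, with a median of 0.0025. By limma 0 passed the adjusted test, while 1 higher and 1 lower gene had an unadjusted p under 0.05, against 1.53% and 1.57% of all genes. The higher one was Acvr1c, a type I receptor gene of the activin and nodal branch, with 7.50, 7.44, 7.63 and 7.56 on cocaine arrays 4, 5, 6 and 7, against 7.30, 7.35 and 7.44 on shock arrays 4, 5 and 6. Its difference was 0.17 (SE 0.058; limma, adjusted p = 0.938), and cocaine array 5 and shock array 6 shared a value. The lower one, the subunit gene Inhbc (-0.16), had a mean under the background stand-in, and the inhibin co-receptor gene Tgfbr3 differed by -0.089.

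Nrn1 encodes neuritin, also called Cpg15. It had 11.22, 11.26, 11.15 and 11.26 on cocaine arrays 4, 5, 6 and 7, against 11.22, 11.23 and 11.00 on shock arrays 4, 5 and 6. Shock array 6 was the lowest and the other 6 arrays lay close together, with cocaine array 4 and shock array 4 at an identical value. The difference was 0.069 (SE 0.065), with a 95% interval of 0.942 to 1.17-fold (limma, adjusted p = 0.938). Without shock array 6 the direction turned and the difference was -0.0048.

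**Figure D2:**
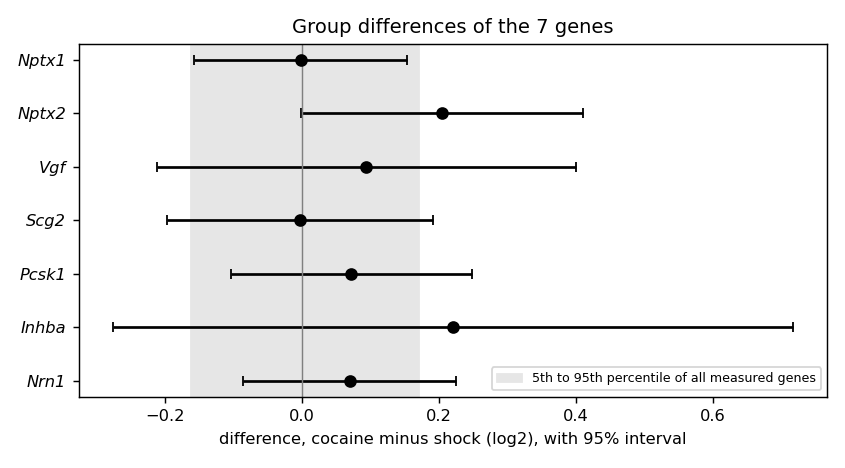
Difference between the groups, cocaine minus shock on the log2 scale (horizontal axis), for each of the 7 genes with its 95% interval from limma, over the 5th to 95th percentile of all 22180 genes in grey (-0.16 to 0.17). Every interval includes 0, and the points of Nptx2 and Inhba lie to the right of the grey band.

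The arrays ordered the 7 genes in more than one way. Shock array 4 was the lowest of the 7 arrays for 5 genes, Nptx2, Vgf, Scg2, Pcsk1 and Inhba, whereas 13.2% of all genes with a single lowest array had it there. Shock array 6 was the lowest for the remaining 2, Nptx1 and Nrn1 (14.7% of all genes), although it was the highest for Vgf and Scg2 (16.0%). Cocaine array 5 was the highest for Nptx2, Pcsk1, Inhba and Nrn1 (12.1% of all genes), and shock array 5 for Nptx1 (11.9%). Cocaine array 6 correlated least with the other arrays over all genes (mean r 0.993, against 0.996 for the others). It was neither the highest (20.0% of all genes) nor the lowest (21.2%) for any of the 7. The arrays are shared by all genes, so the genes are not independent in this.

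The SDs of both groups were compared as a description. The SD was smaller over the 4 cocaine arrays than over the 3 shock arrays for 6 of the 7 genes, all but Inhba, whereas 41.4% of all genes had the smaller SD in the cocaine group. The difference in spread was not tested, and the genes share the same arrays, so they are not independent in this either. Nptx1 had SDs of 0.014 in the cocaine group and 0.14 in the shock group, and Vgf 0.068 and 0.29.

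**Figure D3:**
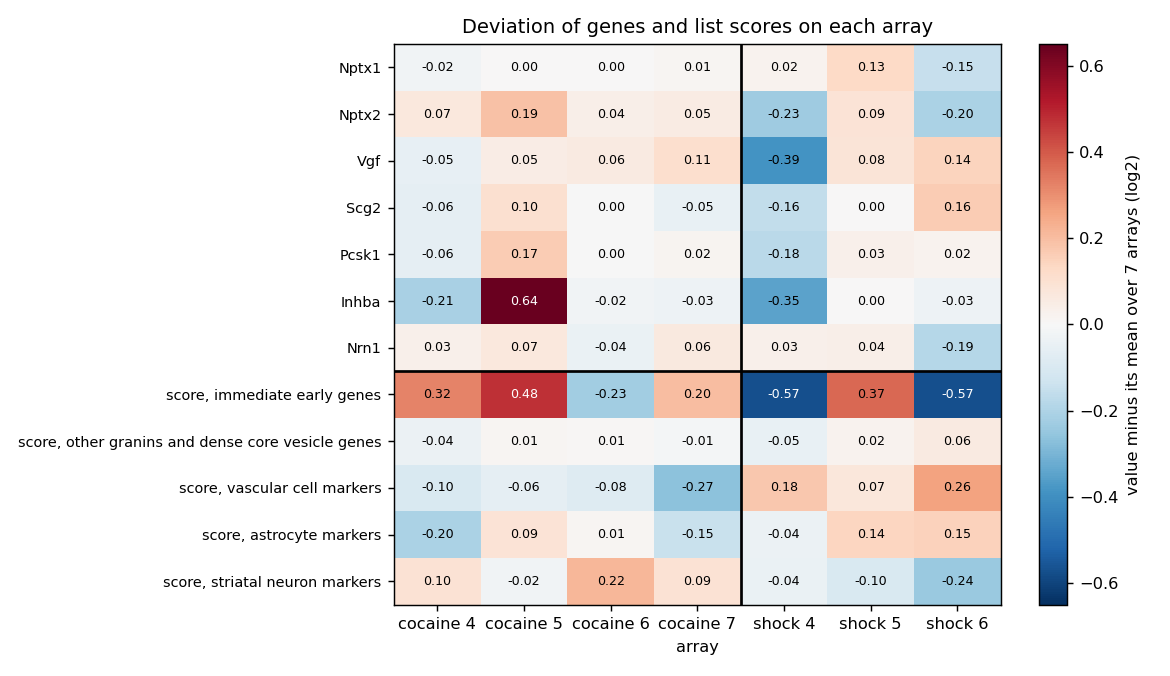
Each cell gives a value minus its mean over the 7 arrays (log2, colour scale), for the 7 genes in the upper block and for list scores in the lower block, cocaine arrays left and shock arrays right. Shock array 4 is low for Vgf (-0.39) and Inhba (-0.35), cocaine array 5 is high for Inhba (0.64), and the immediate early gene score is low on shock arrays 4 and 6 (both -0.57).

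The immediate early genes, a class induced early after activity, differed between arrays by much more than the late secreted genes. Their score was 0.32, 0.48, -0.23 and 0.20 on cocaine arrays 4, 5, 6 and 7, against -0.57, 0.37 and -0.57 on shock arrays 4, 5 and 6. All 19 were higher in the cocaine group, as were 50.9% of all genes, with a median difference of 0.44. By limma 0 passed the adjusted test, as did 0% of all genes. At an unadjusted p under 0.05, 2 of the 19 were higher (Npas4 with 1.49 and Btg2 with 1.01), against 1.53% of all genes. Egr4, a zinc finger transcription factor gene, differed by 0.54, Fos by 1.18 and Arc by 0.67. Leaving out shock array 4 gave 16 of 19 and a median of 0.17, and leaving out shock array 5 a median of 0.84. The count at an unadjusted p under 0.05 (limma) was 11 of 19 without shock array 5, against 788 of all 22180 genes. It was 2 without cocaine array 6, against 585 of all genes. Without any other single array it was 0, against 531 to 775 of all genes. Shock array 5, left out for the count of 11, was the only shock array with a score above 0 (0.37).

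Nptx2 followed this score most closely in rank. Its 7 arrays, from cocaine array 5 at the top through shock array 5, cocaine arrays 4, 7 and 6 and shock array 6 to shock array 4, stood in exactly the order of the score, as chosen for comparison after the values were seen. Among the 22161 genes outside the list, 6 did so, Nptx2 included (0.0271%). So did 3 of the 19 immediate early genes, but the score is averaged from these 19, so their match is partly built in. Because the order was picked after the values were seen, the share is a description and not a test. The order is delicate, since cocaine arrays 6 and 7 lie close together for Nptx2 (9.36 and 9.38) and shock arrays 4 and 6 for the score, and after quantile normalization or median centring it no longer held for Nptx2. For the other 6 genes it did not hold as deposited. The 3 lowest arrays of the score, shock arrays 4 and 6 and cocaine array 6, were the 3 lowest arrays of Nptx2, but Vgf and Scg2 were highest on shock array 6.

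For each gene the most similar pattern over the 7 arrays was sought among 13816 genes above the background stand-in by Pearson correlation. The nearest genes were Rps6kl1 for Nptx2 (r = 0.972), 9530077C05Rik for Nptx1 (r = 0.990), Pclo for Vgf (r = 0.989), Vav3 for Scg2 (r = 0.978), Nop53 for Pcsk1 (r = 0.989), Ddx50 for Inhba (r = 0.986) and Kcnn1 for Nrn1 (r = 0.986). Values of this size are ordinary over 7 arrays, because a gene above the stand-in had a median best match of r = 0.988 among 13823 such genes. These matches describe the 7 arrays and carry no test.

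The other activity-regulated genes with secreted products did not share a direction. Of 11, 4 were higher and 7 lower in the cocaine group, with a median of -0.017, and 0 passed the test or an unadjusted p of 0.05. The tachykinin gene Tac1 differed by 0.14, the somatostatin gene Sst by -0.19 and the neuropeptide Y gene Npy by -0.15. Bdnf, the neurotrophin gene most often studied with this group, differed by -0.0061 (named outside the rule, after its value was seen).

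**Figure D4:**
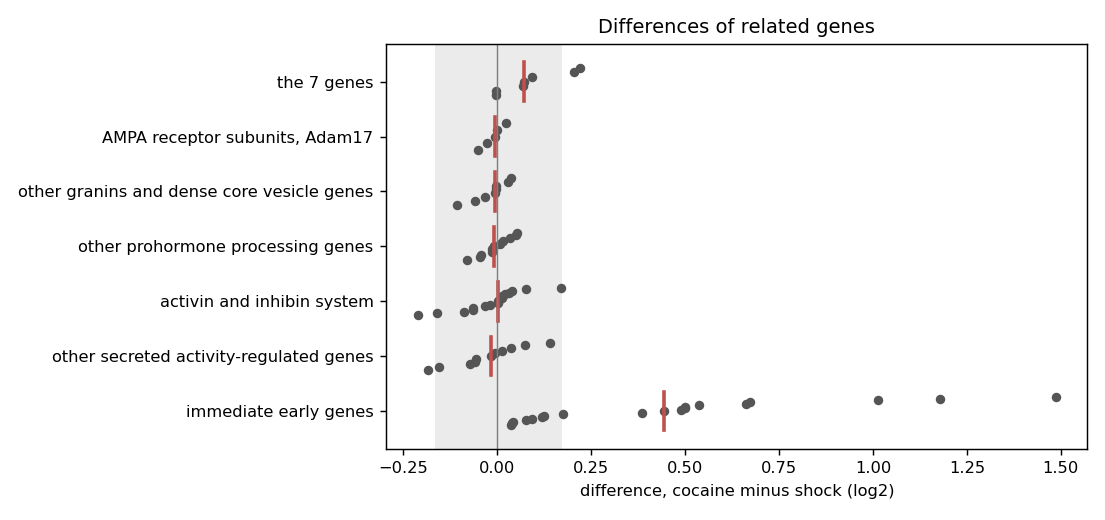
Difference between the groups, cocaine minus shock on the log2 scale (horizontal axis), for the measured genes of the lists named on the vertical axis, with the list's median as a red bar and the 5th to 95th percentile of all genes in grey. The immediate early genes reach 1.49, whereas the medians of the 5 other related lists plotted lie between -0.017 and 0.0025 and that of the 7 late secreted genes at 0.071.

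Markers of other cell types were compared in the same way. Vascular cell markers were lower in the cocaine group in 6 of 6 genes (median -0.30), with a summed level, on the log2 scale, of 9.26 to 9.48 in the cocaine group and 9.60 to 9.82 in the shock group, without overlap. Astrocyte markers were lower in 6 of 6 (median -0.17), with summed levels of 11.64 to 11.94 in the cocaine group and 11.80 to 12.02 in the shock group, which overlap. Striatal neuron markers were higher in 4 of 4 measured (median 0.20). Their summed levels of 11.00 to 11.23 in the cocaine group and 10.84 to 11.02 in the shock group overlap. Their score did not overlap, with -0.025 to 0.22 on the cocaine arrays and -0.24 to -0.041 on the shock arrays. Microglia markers were lower in 4 of 6 (median -0.097), with summed levels of 8.85 to 8.91 in the cocaine group and 8.96 to 9.02 in the shock group, without overlap. Of these markers 0 passed the adjusted test (limma, adjusted p = 0.938 or higher), and 0 had a mean under the background stand-in. At an unadjusted p under 0.05, 4 of the 6 vascular markers were lower (1 to 4 with an array left out, the 1 without cocaine array 7) and 3 of the 4 striatal markers higher (1 to 4, the 1 without shock array 6), against 1.57% and 1.53% of all genes. Of the 6 astrocyte and 6 microglia markers, 0 had an unadjusted p under 0.05 (limma). Single-gene groups did not overlap for 2 vascular, 3 striatal, 0 astrocyte and 0 microglia markers, against 2.37% of all genes. Their part in the values of the late secreted genes was not tested. Oligodendrocyte markers were higher in 4 of 4 (median 0.089, or -0.0099 without shock array 6) and inhibitory neuron markers lower in 4 of 6 (median -0.064), and in both lists the summed levels of the groups overlapped. Excitatory neuron markers, which define most cortical neurons, had a median difference of 0.044, with summed levels of 13.06 to 13.09 in the cocaine group and 13.00 to 13.07 in the shock group.

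**Figure D5:**
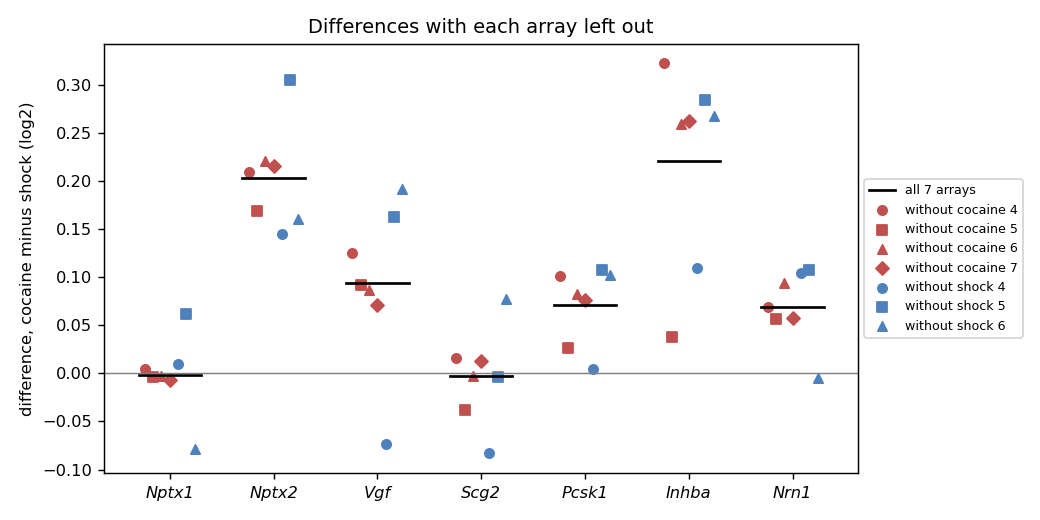
Difference between the groups, cocaine minus shock on the log2 scale (vertical axis), for each gene with all 7 arrays (black line) and with each array left out (points, coloured by the group of the array left out). Nptx2 and Inhba stay above 0 throughout, as does Pcsk1, which comes to 0.0041 without shock array 4, and the other 4 genes cross 0.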

How the data were processed

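RNA on GFP-tagged ribosomes from mPFC was labelled with biotin and hybridised to Affymetrix arrays, per the labels' protocols. The deposited values of 41345 probe sets were used as log2 values, a scale read from the values (1.12 to 13.44). Per the submitters' processing notes, the authors used Transcriptome Analysis Console. How they summarized and normalized the arrays is not given in the sources used here. Quartiles were nearly equal between arrays (medians of 5.44 to 5.47), so a difference is relative to the rest of the array. Precision is limited by the number of arrays.

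Of the probe sets, 23521 carried 1 symbol, and the one with the highest mean was kept per gene (22180 genes). Each late secreted gene had a single probe set. The background stand-in of 5.44 is the 95th percentile of mean levels of chemosensory receptor genes. Groups were compared with limma 3.58.1 under R 4.3.3 (two-sided moderated test from eBayes on all 7 arrays, no covariate), adjusted by Benjamini-Hochberg over all genes. The script was tested on simulated data. The 8 genes, the related lists and the tests were chosen with earlier results of these data known. From each related list up to 3 genes of smallest unadjusted p were named, and Arc and Fos always. Lists of related genes were described by counts and medians, without a set test. Nrn1l, the paralogue of Nrn1, and Pcsk2 had no single-symbol probe set and were not used here. Alternatives left out each array or changed the normalization, centring, filter, probe set rule, moderation, array weights or block. Identical values on 2 or more arrays occurred in 66.9% of the genes.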

Additional observations from a re-analysis of the deposited data

How the results depend on the processing

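No gene passed the adjusted test under the main setting or any of the 15 alternatives (limma, 0 genes; 688 at an unadjusted p under 0.05). With 1 array left out, the differences ranged from -0.078 to 0.062 for Nptx1, 0.15 to 0.31 for Nptx2, -0.073 to 0.19 for Vgf, -0.083 to 0.078 for Scg2, 0.0041 to 0.11 for Pcsk1, 0.038 to 0.32 for Inhba and -0.0048 to 0.11 for Nrn1. The count of late secreted genes with a higher mean ranged from 5 to 7 and their median from 0.0097 to 0.11, both recomputed as an addition after seeing the data. Median centring turned Nptx1 to 0.0091 and Scg2 to 0.0083, so that 7 of 7 were higher, and array weights turned Scg2 to 0.021. With the title number as a replicate block, Scg2 turned to 0.013 and Nptx2 was 0.22. That fit in effect leaves out cocaine array 7, which has no partner. Same-numbered arrays deviated from their group means together with r = 0.13, 0.064 and 0.16 for numbers 4, 5 and 6. Cocaine arrays 4, 5 and 6 each correlated best with the shock array of the same number. Whether numbers mark pairs was not tested, and the labels do not say so. The cause of these turns was not tested. The medians of the AMPA receptor, prohormone processing, activin, other secreted and other pentraxin lists changed sign when 1 array was left out.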
